A study of Mus musculus with 2 samples.

Results

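The genes described here build the intercalated disc, the junction that joins cardiac muscle cells end to end, and the gap junctions of the heart and its vessels. They are 4 connexin genes (Gja1, Gja5, Gja4 and Gjc1), the adherens junction genes Cdh2 and Ctnna3, and the desmosome genes Dsp, Pkp2, Dsg2 and Jup. Each was found by its symbol, once, in the feature lists of both libraries, which makes 10 genes of the 32245 symbols, and each had counts in both. Connexins assemble into channels that pass ions and small molecules from cell to cell, and in the working myocardium they carry the electrical impulse. Desmosomes and adherens junctions hold neighbouring myocytes together by tying cadherins at the membrane to intermediate filaments and to actin. The adult disc mixes both kinds of adhesion, and the desmosomal genes are best known from arrhythmogenic cardiomyopathy.

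Nuclei of mouse cardiac tissue were profiled with the 10x Genomics single cell 3′ v3 kit in 2 libraries, 1 per genotype. The CF-KI library came from Tcf21-MerCreMer mice with Nlrp3-A350V/A350V, and the control from Tcf21-MerCreMer mice with Nlrp3-WT/WT. Both genotypes had tamoxifen injections, and both are given as male, C57Bl6/J and 3.5 months of age. MerCreMer is a Cre recombinase that tamoxifen switches on, and the Tcf21 gene that drives it marks the fibroblast lineage of the heart. By the series record the altered Nlrp3 allele stays silent in cells that lack Cre. The number of animals behind a library is not stated. No group has a replicate, so every difference given here is between these 2 libraries, no test was possible, and the 95% intervals cover counting error only.

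The CF-KI library held 21603653 UMIs (unique molecular identifiers, each 1 counted RNA molecule) in 15077 barcodes and the control 18040776 in 11257, and 46 barcode sequences occurred in both. The libraries stood apart in mitochondrial RNA, whose median share per barcode was 14.2% (CF-KI) and 3.46% (control). Levels are given as CPM, the UMIs of a gene per 1000000 non-mitochondrial UMIs of its class. Nlrp3 totalled 40 UMIs in the CF-KI library against 20 in the control library, and Tcf21 stood at 133 CPM in CF-KI fibroblast-like nuclei against 129 CPM in control ones. These counts do not check the genotype, since 3′ counts do not show the altered codon. Nuclei of both libraries were clustered together without the genes described here, and 11 classes were named from marker genes, each with 50 nuclei or more per library. All 8 cardiomyocyte markers were detected in the tissue, and 1 cluster of 126 control and 1 CF-KI nuclei carried airway epithelial markers. A cluster of 1871 CF-KI and 223 control barcodes carried cardiomyocyte markers with median mitochondrial shares of 64.8% and 55.9%. It was kept apart from the nuclei as mitochondria-dominated barcodes.

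All members carry the identifier that GENCODE vM21 gives their symbol. On GRCm38 Gja1 (ENSMUSG00000050953) lies on chromosome 10 from 56377330 to 56402513, Gja5 (ENSMUSG00000057123) on chromosome 3 from 96904693 to 97077416, Gja4 (ENSMUSG00000050234) on chromosome 4 from 127311421 to 127314039 and Gjc1 (ENSMUSG00000034520) on chromosome 11 from 102799579 to 102819700. Dsp (ENSMUSG00000054889) lies on chromosome 13 from 38151294 to 38198577, Pkp2 (ENSMUSG00000041957) on chromosome 16 from 16213318 to 16272712 and Jup (ENSMUSG00000001552) on chromosome 11 from 100368958 to 100397763. Ctnna3 (ENSMUSG00000060843), on chromosome 10 from 63430098 to 65003667, is the longest member, spanning 1574 kb (kilobases) against 2.62 kb for Gja4. Cdh2 (ENSMUSG00000024304) spans 220.4 kb and Dsg2 (ENSMUSG00000044393) 46.4 kb. Ctnna3 overlaps 3 annotated genes on the opposite strand, so reads of these stretches depend on the strand being counted.

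The promoters of 4 members are shown because much of what follows turns on these genes: Gja1 in cardiomyocytes, Gja4 in pericytes, Dsp in mitochondria-dominated barcodes and Jup in endothelium. RefSeq promoter sequences on GRCm38.p6 were found for 6 of the 10 members. Each run covers 250 bases before to 50 after the RefSeq start, written 5′ to 3′ along the gene, with matches to the motifs searched in capitals. The positions are chr10:56377050-56377349 (plus strand) for Gja1, chr4:127313990-127314289 (minus strand) for Gja4, chr13:38151044-38151343 (plus strand) for Dsp and chr11:100397741-100398040 (minus strand) for Jup.
Gja1: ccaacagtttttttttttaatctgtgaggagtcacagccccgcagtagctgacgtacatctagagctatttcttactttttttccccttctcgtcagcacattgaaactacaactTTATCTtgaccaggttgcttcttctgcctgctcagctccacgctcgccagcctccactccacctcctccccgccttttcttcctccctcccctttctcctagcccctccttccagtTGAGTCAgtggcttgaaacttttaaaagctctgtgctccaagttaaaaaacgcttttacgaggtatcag
Gja4: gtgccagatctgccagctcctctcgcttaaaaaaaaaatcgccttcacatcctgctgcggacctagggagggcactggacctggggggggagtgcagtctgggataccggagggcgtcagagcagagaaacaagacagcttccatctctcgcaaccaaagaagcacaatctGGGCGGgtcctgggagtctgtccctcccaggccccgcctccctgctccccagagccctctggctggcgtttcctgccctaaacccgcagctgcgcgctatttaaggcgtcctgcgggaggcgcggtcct
Dsp: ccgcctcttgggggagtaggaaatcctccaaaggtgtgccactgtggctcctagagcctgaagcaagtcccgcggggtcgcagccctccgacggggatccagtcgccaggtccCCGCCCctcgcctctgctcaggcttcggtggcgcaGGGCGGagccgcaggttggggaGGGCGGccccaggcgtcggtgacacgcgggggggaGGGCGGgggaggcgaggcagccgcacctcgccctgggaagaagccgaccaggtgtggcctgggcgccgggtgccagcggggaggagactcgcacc
Jup: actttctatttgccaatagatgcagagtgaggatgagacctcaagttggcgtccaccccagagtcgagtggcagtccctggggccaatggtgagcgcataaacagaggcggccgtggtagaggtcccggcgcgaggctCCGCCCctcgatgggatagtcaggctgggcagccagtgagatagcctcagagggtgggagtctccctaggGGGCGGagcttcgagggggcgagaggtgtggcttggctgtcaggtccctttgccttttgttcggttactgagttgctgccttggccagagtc
Both strands were searched for 7 motifs, and no matches overlapped in these windows. The AP-1 motif TGANTCA matched once in Gja1, from 19 to 13 bases before the start, and 7.81% of the 32851 mouse promoters of this length hold it. The GATA motif AGATAA also matched once in Gja1, on the opposite strand from 135 to 130 bases before the start (11.2% of promoters). The Sp1 motif GGGCGG, held by 35.7% of promoters, matched 4 times in Dsp, 2 times in Jup and 1 time in Gja4, all before the start. The TATA box TATAAA (13.6%), the Nkx2-5 motif TNAAGTG (11.5%), the T-box motif GGTGTGA (3.98%) and the Mef2 motif (3.69%) did not match in these 4 windows. A match is only a run of letters.

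The first comparison asks whether the junction genes of cardiomyocytes were read at other levels in the CF-KI library than in the control. There were 2577 CF-KI and 2302 control cardiomyocyte-like nuclei. Gja1, which encodes connexin 43, the main gap junction protein of the ventricle, was the only member past 1.5-fold, at 1.63-fold higher in CF-KI. Dsp and Cdh2 were higher in CF-KI by less than that, Dsg2 was lower, and Pkp2, Ctnna3, Gjc1 and Jup lay within 0.20 of 0 on the log2 scale. Of 8 members with at least 50 UMIs in this class, 1 was past 1.5-fold higher and 0 lower, where 21.7% of 9988 features were past it higher and 6.01% lower. The members' median log2 ratio (CF-KI over control) was 0.08 against 0.15 for all features, so the group did not stand above the features around it. Scaling by TMM (trimmed mean of M values) lowered every log2 ratio of this class by 0.18 and median-of-ratios scaling by 0.22, which put the members' median at -0.10 and -0.14. Under both, 0 members were past 1.5-fold higher and 1, Dsg2, lower, with Gja1 at 0.53 and 0.49. The shares of 21.7% and 6.01% are without this scaling. Those of all features under it are not given here, so these 2 counts have no share to be read against.

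Among the connexins, Gja1 had 807 CPM in CF-KI (781 to 833; 3717 UMIs) and 494 CPM in the control (476 to 512; 2926 UMIs). The intervals were far apart, and the log2 ratio was 0.71 (0.64 to 0.78). After each nucleus was thinned to 500 UMIs, 31.2% of CF-KI and 20.3% of control nuclei had a Gja1 UMI, against 65.1% and 57.9% before thinning. For comparison, B cell-like nuclei, which are not known for this connexin, had 6.58% and 4.62% after thinning (24.4% and 10.3% before), at median depths of 978.5 and 873 non-mitochondrial UMIs against 1584 and 2268. Gjc1, the gene of connexin 45, which is known from the conduction system and vessel walls, had 21.5 CPM in CF-KI against 23.0 CPM in control nuclei. Its intervals overlapped, at a log2 ratio of -0.09 (-0.48 to 0.29). Gja4 (17 and 9 UMIs) and Gja5 (7 and 10 UMIs) were too rare in cardiomyocyte-like nuclei to be compared.

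Both adherens junction genes were higher in CF-KI, Ctnna3 not under median-of-ratios scaling. Cdh2 encodes N-cadherin, the cadherin of the cardiac disc, and had 373 CPM in CF-KI against 276 CPM in control nuclei, a log2 ratio of 0.44 (0.34 to 0.54). Ctnna3 encodes αT-catenin, which links cadherin complexes to actin and to plakophilin-2. It had 221 CPM and 193 CPM, a log2 ratio of 0.20 (0.07 to 0.32) that stood close to the 0.15 of all features and was -0.02 under median-of-ratios scaling. Counting intervals of both libraries were apart for Cdh2 and close for Ctnna3.

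The desmosome genes did not share a direction. Dsp encodes desmoplakin, which ties the desmosome to intermediate filaments, and had 251 CPM in CF-KI against 175 CPM in control nuclei (log2 ratio 0.52, 0.40 to 0.64). With mitochondria-dominated barcodes counted in the class its log2 ratio was 1.04. Dsg2 encodes desmoglein-2, the desmosomal cadherin of the heart, and went the other way with 55.4 CPM (255 UMIs) in CF-KI against 81.8 CPM (485 UMIs) in control nuclei. Its log2 ratio was -0.56 (-0.79 to -0.34), just short of 1.5-fold, and past it under TMM scaling at -0.74. Pkp2 encodes plakophilin-2, an armadillo protein of the desmosomal plaque, and had 252 CPM against 279 CPM, a log2 ratio of -0.15 (-0.26 to -0.04). For Jup, the gene of plakoglobin, which sits in desmosomes and adherens junctions alike, the levels of 31.5 CPM and 32.2 CPM overlapped in their intervals (log2 ratio -0.03, -0.36 to 0.29).

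**Figure D1:**
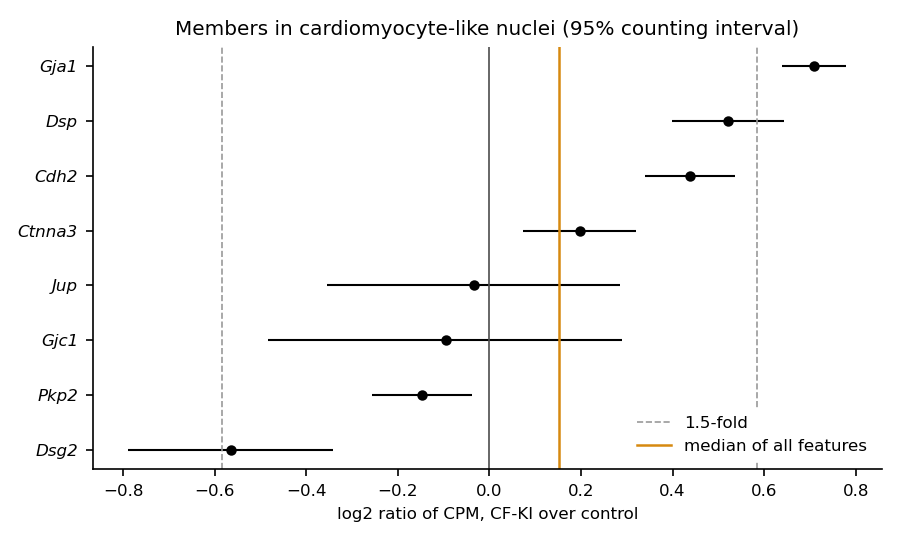
Log2 ratio of CPM, CF-KI over control, for the 8 members with at least 50 UMIs in cardiomyocyte-like nuclei (points, with 95% counting intervals as bars); dashed lines mark 1.5-fold and the orange line the median of all features at 0.15. Gja1 at 0.71 lies beyond the upper dashed line, and Dsg2 at -0.56 lies just inside the lower one.

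Different clusters held most of this class in the 2 libraries: one had 2374 CF-KI and 312 control nuclei and the other 139 and 1874, beside 64 and 116 atrial nuclei. Their mitochondrial shares differed as well, with class medians of 3.73% (CF-KI) and 0.375% (control), and the estimated share of free RNA in the class was 18.7% and 8.62%. Markers of other cells moved with it, since all 8 fibroblast markers (summed 1772 and 929 CPM), all 8 endothelial markers (251 and 107 CPM) and 7 of 8 macrophage markers (187 and 108 CPM) were higher in CF-KI. No marker of these 3 lists was at 0 in either library. Airway epithelial markers went the other way, with 0 of 6 higher in CF-KI (summed 0.868 and 289.9 CPM), Bpifa1, Scgb3a2, Epcam and Sftpc at 0 in CF-KI and Sftpc at 0 in the control. The part of these in the members' differences was not tested, but the ratios were measured within each cluster. Gja1 had 815 CPM in CF-KI against 556 CPM in control nuclei within the first cluster, a log2 ratio of 0.55 (0.40 to 0.71), and 785 CPM and 483 CPM within the other, a ratio of 0.70 (0.51 to 0.89). All features had medians of -0.01 and 0.06 there.

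Within bands of mitochondrial share the Gja1 log2 ratio was 0.67 (0.46 to 0.87) in nuclei with up to 1%, 0.56 (0.40 to 0.73) from 1 to 5% and 0.44 (0.07 to 0.84) from 5 to 20%, the last with 39 control nuclei. Cdh2 was also higher in CF-KI within both clusters, by 0.23 (0.03 to 0.44) and 0.58 (0.31 to 0.84). Dsp was within counting error in both, at 0.22 (-0.03 to 0.48) and 0.33 (-0.05 to 0.69), although it was 0.63 (0.27 to 0.97) in the lowest and 0.67 (0.36 to 0.99) in the middle band. Dsg2 was -0.33 (-0.78 to 0.14) and -0.40 (-1.13 to 0.25) within the clusters, lower in CF-KI but within counting error. Pkp2 had -0.34 (-0.55 to -0.13) in the first cluster and 0.03 (-0.29 to 0.34) in the other. Jup and Gjc1 were lower in CF-KI in the first cluster, at -0.62 (-1.18 to -0.03) and -0.75 (-1.41 to -0.05), and within counting error in the other. Ctnna3 was within counting error in both clusters, at 0.16 (-0.10 to 0.42) and 0.11 (-0.27 to 0.47). Of the bands, its interval lay above 0 only in the middle one, at 0.34 (0.05 to 0.65). Thus the intervals of Gja1 and Cdh2 lay above 0 in each cluster, and those of Dsp, Dsg2 and Ctnna3 held 0 in each.

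Gja5, the gene of connexin 40, is the textbook atrial and conduction gap junction gene, so atrial and non-atrial nuclei were compared within each library. The atrial cardiomyocyte-like cluster, with 64 CF-KI and 116 control nuclei, raised all 8 of its markers. In the control library Gja5 had 6 UMIs (31.9 CPM) in atrial and 4 UMIs (0.697 CPM) in non-atrial nuclei, a log2 ratio of 5.52 (3.44 to 7.79). In CF-KI it had 1 UMI (12.5 CPM) and 6 UMIs (1.33 CPM), and the interval of the ratio, from -2.28 to 6.28, held 0. Gja1 was lower in atrial nuclei of CF-KI, with 464 CPM against 813 CPM (log2 ratio -0.81, -1.32 to -0.34), and not in the control, with 543 CPM against 492 CPM (0.14, -0.16 to 0.43). The difference between these 2 ratios was not tested. Cdh2 was lower in atrial nuclei of both libraries, at 201 CPM against 376 CPM in CF-KI (-0.91, -1.72 to -0.20) and 128 CPM against 280.4 CPM in the control (-1.14, -1.78 to -0.56).

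Between the libraries, 3 members reached 50 UMIs in atrial nuclei, and 1 of them was past 1.5-fold higher, where 38.5% of 598 features were (16.9% lower). Dsp had 464 CPM (37 UMIs) in CF-KI against 213 CPM (40 UMIs) in control nuclei, a log2 ratio of 1.12 (0.44 to 1.81), and the intervals were narrowly apart. Gja1 had a log2 ratio of -0.23 (-0.81 to 0.33) and Pkp2 of -0.43 (-1.50 to 0.54), both within counting error. TMM scaling lowered the log2 ratios of this class by 0.45, which put Gja1 at -0.68, Pkp2 at -0.88 and Dsp at 0.67. The median mitochondrial share of these nuclei was 24.5% (CF-KI) and 1.51% (control), and the estimated free RNA was 54.3% and 15.2% of their UMIs. Whether these bear on Dsp was not tested.

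Mitochondria-dominated barcodes differed from cardiomyocyte-like nuclei in the make-up of their junction RNA, with Dsp high and Ctnna3 low. The Dsp level was 1296 CPM in CF-KI barcodes of this kind and 1338 CPM in control ones, against 247 and 174 CPM in non-atrial cardiomyocyte-like nuclei. Its log2 ratios of mitochondria-dominated over nuclei were 2.39 (2.28 to 2.51) and 2.95 (2.75 to 3.14), at percentiles 97.3 and 87.7. Dsp was among the 10 leading genes of that cluster. Each percentile is the share of all features tested that had a lower ratio. Features with 0 UMIs in these barcodes have no ratio and were not counted as lower. The percentiles are therefore lower limits. After thinning to 500 UMIs, which left out 1083 and 69 shallower barcodes, 41.5% of CF-KI and 45.5% of control barcodes had a Dsp UMI, against 11.9% and 7.57% of non-atrial nuclei. Jup was higher there too, with 80.7 and 95.3 CPM against 30.7 and 31.2 CPM, log2 ratios of 1.39 (0.99 to 1.79) and 1.61 (0.88 to 2.27).

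Ctnna3 was the reverse, with 30.4 CPM (CF-KI) and 13.6 CPM (control, 3 UMIs) against 222 and 193 CPM in nuclei. Its log2 ratios were -2.87 (-3.43 to -2.36) and -3.83 (-6.11 to -2.28), at percentiles 2.96 and 0.389. These percentiles also leave out features with 0 UMIs in the barcodes, so the true rank of Ctnna3 may be higher. Pkp2 was lower as well, at -1.32 (-1.62 to -1.03) and -1.71 (-2.44 to -1.06), and so was Gja1, at -0.81 (-0.94 to -0.67) and -1.15 (-1.58 to -0.74). Cdh2 differed less, at -0.41 (-0.59 to -0.23) and -0.36 (-0.81 to 0.05). Of 8 members tested, 3 were past 1.5-fold higher and 3 lower in CF-KI, where 42.1% and 28.4% of 8524 features were, and 3 higher and 4 lower in the control, where 38.8% and 24.7% of 7965 features were. With shares that large, these counts are no result about the members. The order of the 8 ratios was the same in both libraries, from Ctnna3 and Pkp2 up to Jup and Dsp, except that Cdh2 and Dsg2 changed places. Between the libraries, 1 of 7 members was past 1.5-fold higher within these barcodes and 0 lower, where 18.5% and 8.31% of 3600 features were. It was Gja1, with 465 CPM in CF-KI against 222 CPM in control barcodes (49 UMIs), a log2 ratio of 1.07 (0.64 to 1.52).

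**Figure D2:**
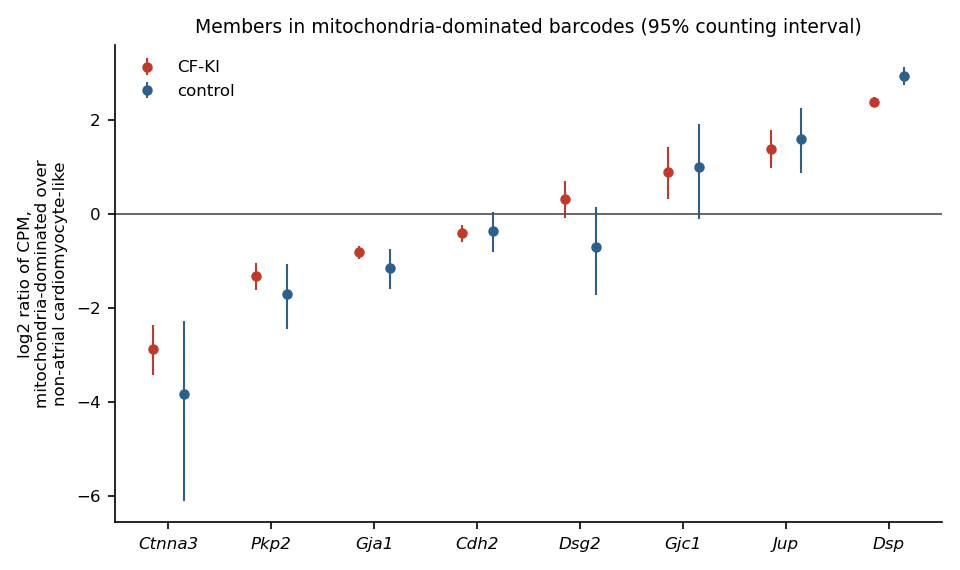
Log2 ratio of CPM of mitochondria-dominated barcodes over non-atrial cardiomyocyte-like nuclei for 8 members, by library (points, with 95% counting intervals as bars; Gja4 and Gja5 are left out for their low counts). Ctnna3 is lowest at -2.87 and -3.83, and Dsp is highest at 2.39 and 2.95.

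Gene length went with this ratio across features. Those spanning under 10 kb had a median log2 ratio of 0.75 (CF-KI) and 0.56 (control), and those spanning 200 kb or more had -0.29 and -0.25. Counts under 3 UMIs were set to 3 here, which is 2.85 CPM in CF-KI and 13.6 CPM in control mitochondria-dominated barcodes. This raises the ratios of features with fewer UMIs in those barcodes, and its part in the trend was not tested. Spearman's rho across 8458 and 7898 features was -0.14 and -0.21, a description over features that share 2 sets of barcodes. Ctnna3, with 1574 kb, and Cdh2, with 220.4 kb, are the long members. Dsp (47.3 kb) and Dsg2 (46.4 kb) have nearly the same span. Dsg2 had log2 ratios of 0.32 (-0.07 to 0.70) and -0.70 (-1.71 to 0.15), within counting error in both libraries.

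Among the 11 classes Gjc1, Gja4 and Jup had their highest CPM in a vessel class and the other members in a cardiomyocyte class. For Gja5 in CF-KI this rested on 1 UMI in atrial nuclei (12.5 CPM), beside 11.9 CPM from 5 UMIs in pericyte-like nuclei. With CPM over all UMIs, pericyte-like nuclei led for Gja5 in CF-KI, with 10.3 CPM against 7.72 CPM in atrial nuclei. The highest CPM does not give where most UMIs lay. Of the Jup UMIs, fibroblast-like nuclei held 33.7% in the control and 24.2% in CF-KI. Capillary endothelial-like nuclei held 27.8% and 36.8% of them. Some RNA in a droplet comes from other cells, so each class was compared with cardiomyocyte-like nuclei by its level as a percentage of theirs, beside the same percentage for the 8 cardiomyocyte markers. A member above the whole range of those markers, against nuclei and against mitochondria-dominated barcodes, is called above the marker range. As another measure, free RNA of the whole library's make-up was subtracted, and a member with at least 50 UMIs in the class was counted as left where the rest lay above counting error in both libraries. Gjc1 was highest in pericyte-like nuclei of both libraries, with 282 CPM (233 to 337) in CF-KI against 313 CPM (265 to 367) in control nuclei. Pericytes wrap the capillaries, and connexin 45 is known in vessel walls. These levels were 1311% and 1363% of those in cardiomyocyte-like nuclei, where the markers spanned 27.0 to 108% and 12.3 to 96.8%. Capillary endothelial-like nuclei came next in the control with 73.1 CPM, and lymphatic endothelial-like nuclei in CF-KI with 102 CPM (18 UMIs), whose interval overlapped the 90.5 CPM of capillary nuclei. The 6 pericyte markers summed to 4102 and 2731 CPM in capillary nuclei against 9013 and 7112 CPM in pericyte-like nuclei, and their part in the capillary Gjc1 level was not tested.

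Gja4, the gene of connexin 37, known as an endothelial gap junction protein, was also highest in pericyte-like nuclei, with 110 CPM (80.4 to 146) in CF-KI against 117 CPM (88.2 to 152) in control nuclei. Endocardial-like nuclei had 41.4 CPM and 61.8 CPM, and lymphatic endothelial-like nuclei 34.0 CPM (6 UMIs) and 89.2 CPM (10 UMIs), the latter with an interval that overlapped pericytes. Capillary endothelial-like nuclei had only 18.4 CPM and 20.1 CPM. In capillary nuclei with 2 or more UMIs of 8 arterial markers the Gja4 level was 27.7 CPM (16.9 to 42.7) and 34.5 CPM (18.9 to 57.9), in those with 1 it was 12.4 and 14.1 CPM, and in those with none 13.7 CPM (6.84 to 24.5) and 9.87 CPM (2.69 to 25.3). The intervals overlapped in each library, and the split was chosen after seeing the data. The nuclei with 2 or more were also deeper than those with none, with medians of 1530 and 1646 non-mitochondrial UMIs against 700.5 and 663.5.

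Gja5 was rare everywhere, with 32 UMIs in the whole CF-KI library and 41 in the control. Endocardial-like nuclei held 8 and 19 of them, at 6.89 CPM (2.98 to 13.6) and 16.8 CPM (10.1 to 26.2). The control level there was 995% of that in cardiomyocyte-like nuclei, against a marker range of 5.52 to 82.7%. Only atrial nuclei had a higher CPM in the control. In CF-KI pericyte-like nuclei had 11.9 CPM from 5 UMIs, and 4 UMIs were in the 50 CF-KI nuclei that a finer clustering separated as smooth muscle-like, against 0 in 37 such control nuclei, which allows a level of up to 58.8 CPM, that of 3 UMIs.

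Jup was the one adhesion gene with a vascular maximum. Capillary endothelial-like nuclei had 236 CPM (215 to 258) in CF-KI against 317 CPM (285 to 352) in control nuclei, 750% and 983% of the cardiomyocyte-like level. Plakoglobin binds VE-cadherin in endothelial junctions as well as desmosomal cadherins. Lymphatic endothelial-like nuclei followed with 159 CPM and 196 CPM, and fibroblast-like nuclei had 89.2 CPM and 102 CPM, above the marker range in both libraries. By arterial markers the capillary level was 260.1 and 350.0 CPM with 2 or more UMIs and 217 and 254 CPM with none, with overlapping intervals in each library.

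Cdh2, Pkp2 and Ctnna3 had their highest level in non-atrial cardiomyocyte-like nuclei of both libraries among the 11 classes, and they were above the marker range in none of the 9 classes outside cardiomyocytes. The top of that range was 104 to 138% of the cardiomyocyte-like level in CF-KI fibroblast-like, endocardial-like, lymphatic endothelial-like and pericyte-like nuclei. It was 104% in control capillary nuclei. A member highest in cardiomyocytes could not pass the range in these. The next of the 11 classes was atrial nuclei for Cdh2, Pkp2 and Ctnna3. For Ctnna3 the log2 ratio of atrial over non-atrial nuclei was within counting error in both libraries. It was -0.69 (-1.70 to 0.16) in CF-KI and -0.14 (-0.68 to 0.36) in the control. So was that of Pkp2 in CF-KI, at -0.76 (-1.71 to 0.05). With at most 5% mitochondrial UMIs, Ctnna3 of the control was highest in atrial nuclei, with 202.5 CPM against 193.4 CPM in non-atrial nuclei. In the smooth muscle-like nuclei of the finer clustering, Ctnna3 had 255 CPM (136 to 436; 13 UMIs) in 37 control nuclei. This was above the 193 CPM of control non-atrial nuclei, with an interval that held that level. The 50 CF-KI smooth muscle-like nuclei had 0 UMIs of Ctnna3. Dsp had its highest level among the 11 classes in atrial nuclei, with an interval that overlapped that of non-atrial nuclei in the control. With CPM over all UMIs the control order changed, with 171.5 CPM in non-atrial and 170.7 CPM in atrial nuclei. With at most 5% mitochondrial UMIs, control non-atrial nuclei led with 171.1 CPM and lymphatic endothelial-like nuclei came next with 165.8 CPM. Outside cardiomyocytes Dsp was above the marker range in control lymphatic endothelial-like nuclei (134 CPM from 15 UMIs). It was left after subtraction in fibroblast-like, capillary endothelial-like, endocardial-like and mesothelial-like nuclei. In the classes where it was left, Dsp as a percentage of mitochondria-dominated barcodes lay within the markers' range in both libraries. Free RNA with the make-up of those barcodes was not subtracted, so its part in these levels was not tested. Dsg2 reached 49.9 CPM in CF-KI mesothelial-like nuclei, the lining of the heart's surface, and this was above the marker range, where the 33.8 CPM of the control was not. With free RNA subtracted, Dsg2 was left in mesothelial-like and endocardial-like nuclei, which requires both libraries. The 126 control nuclei with airway epithelial markers, an epithelium joined by desmosomes, had 70.4 CPM of Dsg2 (22 UMIs) and 106 CPM of Pkp2 (33 UMIs). Gja1 was highest in cardiomyocytes, at 813 CPM in non-atrial nuclei of CF-KI and 543 CPM in atrial nuclei of the control, where non-atrial nuclei at 492 CPM did not differ beyond counting error. Outside them mesothelial-like nuclei had 340 and 234 CPM, capillary endothelial-like nuclei 335 and 190.0 CPM and lymphatic endothelial-like nuclei 278 and 285 CPM. Gja1 was above the marker range in none of the classes outside cardiomyocytes, with the same limit on passing it. It was left after subtraction in capillary endothelial-like, mesothelial-like and adipocyte-like nuclei.

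**Figure D3:**
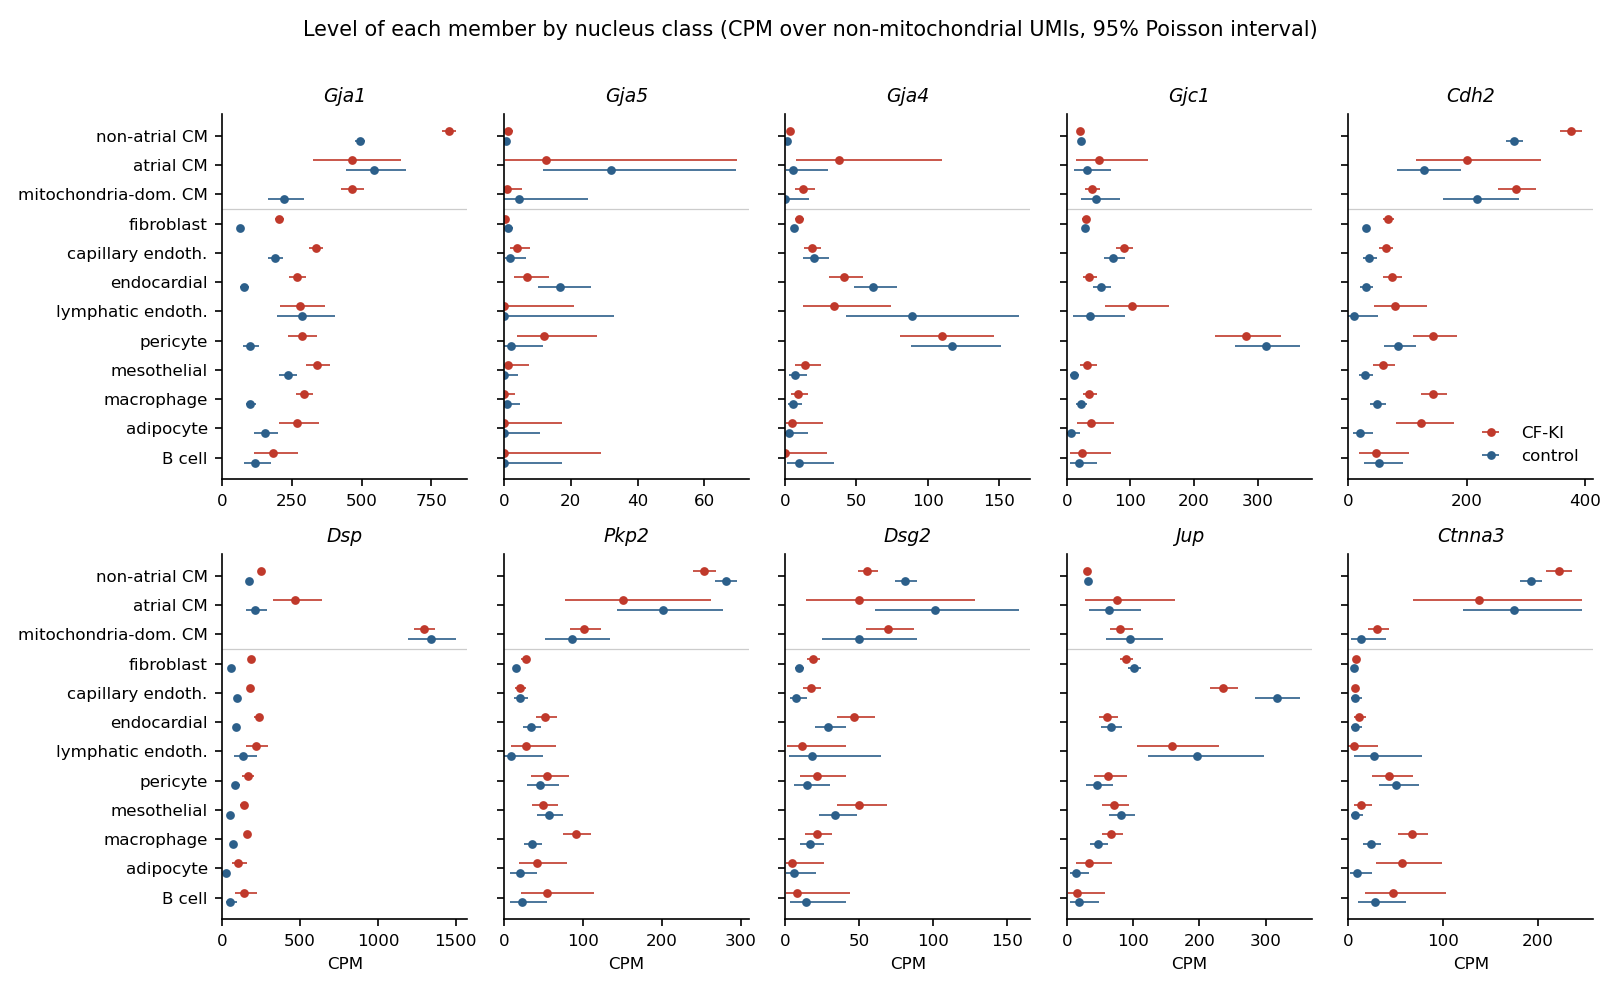
Level of each of the 10 members in CPM over non-mitochondrial UMIs (horizontal axis, a scale of its own per gene) in 11 classes and in mitochondria-dominated barcodes, above the grey line with the cardiomyocyte (CM) classes, for CF-KI (red) and control (blue), with 95% Poisson intervals as bars. Gjc1 and Gja4 peak in pericyte-like nuclei, Jup in capillary endothelial-like nuclei at 236 and 317 CPM, and Dsp in mitochondria-dominated barcodes.

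Fibroblasts are the cells that Tcf21-driven Cre targets, so their junction genes were compared next, in 4001 CF-KI and 3566 control nuclei. Gja1, Dsp, Cdh2, Dsg2, Pkp2, Gja4 and Ctnna3 were past 1.5-fold higher in CF-KI there, of which Gja4 (log2 interval -0.15 to 1.45) and Ctnna3 (-0.21 to 1.48) were within counting error. Gja1 had 204 CPM against 61.6 CPM (log2 ratio 1.73, 1.52 to 1.94), Dsp 182 against 52.7 CPM (1.79, 1.57 to 2.02) and Cdh2 67.2 against 29.2 CPM (2.30-fold, log2 interval 0.88 to 1.53). Of 9 members with at least 50 UMIs, 7 were past 1.5-fold higher and 0 lower, where 10.1% of 10837 features were higher and 7.83% lower. Jup, at 89.2 against 102 CPM (-0.19, -0.40 to 0.03), and Gjc1, at 29.7 against 29.0 CPM (0.04, -0.36 to 0.43), were not past it.

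RNA of cardiomyocyte markers moved with these differences. All 8 cardiomyocyte markers were higher in CF-KI fibroblast-like nuclei, with a summed level of 14113 CPM against 4791 CPM in the control, and the estimated share of free RNA was 46.7% against 22.8%. None of the 8 was at 0 in either library. As a percentage of cardiomyocyte-like nuclei, Gja1, Dsp, Cdh2, Pkp2 and Dsg2 lay within the range of the markers in both libraries, Ctnna3 below it and Gjc1 and Jup above it. As a percentage of mitochondria-dominated barcodes, Dsp lay within the markers' range in both libraries and Cdh2 in CF-KI, and the others lay above it. With free RNA subtracted, 3 of the 9 members tested (Gjc1, Dsp and Jup) were left. Different clusters held most of the fibroblast-like class too, with 2858 CF-KI and 123 control nuclei in one, 261 and 2307 in another and 882 and 1136 in the last. In that last cluster the Gja1 log2 ratio was 1.54 (1.21 to 1.88) and that of Dsp 1.70 (1.31 to 2.10), beside 9525 and 3766 CPM of cardiomyocyte markers. In the second, at 13234 and 5160 CPM of markers, Gja1 had 1.58 (1.04 to 2.10). In the first, where marker levels were near each other at 16691 and 15510 CPM, the Gja1 ratio was 1.05 (0.23 to 2.02) and that of Dsp 0.74 (-0.02 to 1.63), from 12 and 14 control UMIs.

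Gja1, Dsp and Cdh2 were also past 1.5-fold higher in CF-KI in endocardial-like, macrophage-like, capillary endothelial-like and pericyte-like nuclei. In endocardial-like nuclei, the inner lining of the chambers, 5 of 8 members were past 1.5-fold higher and 1 lower, where 13.3% and 9.62% of 7066 features were, and Gja1 led with 269 against 77.7 CPM (log2 ratio 1.79, 1.44 to 2.15). Gjc1 was the lower one, at 35.3 against 53.9 CPM (-0.61, -1.22 to -0.01; -0.57 under median-of-ratios scaling), and Gja4 was lower by less, at 41.4 against 61.8 CPM (-0.58, -1.14 to -0.03). In macrophage-like nuclei 6 of 7 were past it higher and 0 lower, where 14.7% of 7257 features were higher and 15.6% lower, and Gjc1 among the 6 was within counting error (0.69, -0.07 to 1.47). Cdh2 had 143 against 49.2 CPM there (1.54, 1.10 to 2.01), and no member stood above the free RNA level that was subtracted.

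In capillary endothelial-like nuclei 3 of 7 members were past 1.5-fold higher and 0 lower, where 7.73% of 7765 features were higher and 9.79% lower. These were Gja1 (0.82), Cdh2 (0.83) and Dsp (0.97; -0.04 in nuclei with at most 5% mitochondrial UMIs), while Jup was lower at -0.42 (-0.63 to -0.22). In pericyte-like nuclei the same 3 of 5 were past it higher, where 25.2% of 3284 features were, and the members that mark this class were not, with log2 ratios of -0.15 (-0.51 to 0.21) for Gjc1 and -0.09 (-0.68 to 0.50) for Gja4. Mesothelial-like nuclei had 2 of 6 past it higher, where 15.5% of 5540 features were (8.47% lower). Lymphatic endothelial-like nuclei had 1 of 3 (Dsp, 0.69, -0.21 to 1.65), where 21.1% of 963 were (11.9% lower), and adipocyte-like nuclei 1 of 1, where 17.7% of 1846 were (16.4% lower). None of the members tested in these 3 classes was past 1.5-fold lower. RNA of cardiomyocyte markers moved with these differences too: over the 7 classes of this and the preceding paragraph the 8 markers summed to 9851 to 19088 CPM in CF-KI and 3711 to 9206 CPM in the control. All 8 were higher in CF-KI in 6 of these classes and 7 of 8 in capillary nuclei, and the estimated free RNA was 37.5 to 73.2% against 17.0 to 41.1%. The part of it in the members' differences was not tested. With it subtracted, the capillary log2 ratio of Gja1 was 0.59 and that of Jup -0.23.

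**Figure D4:**
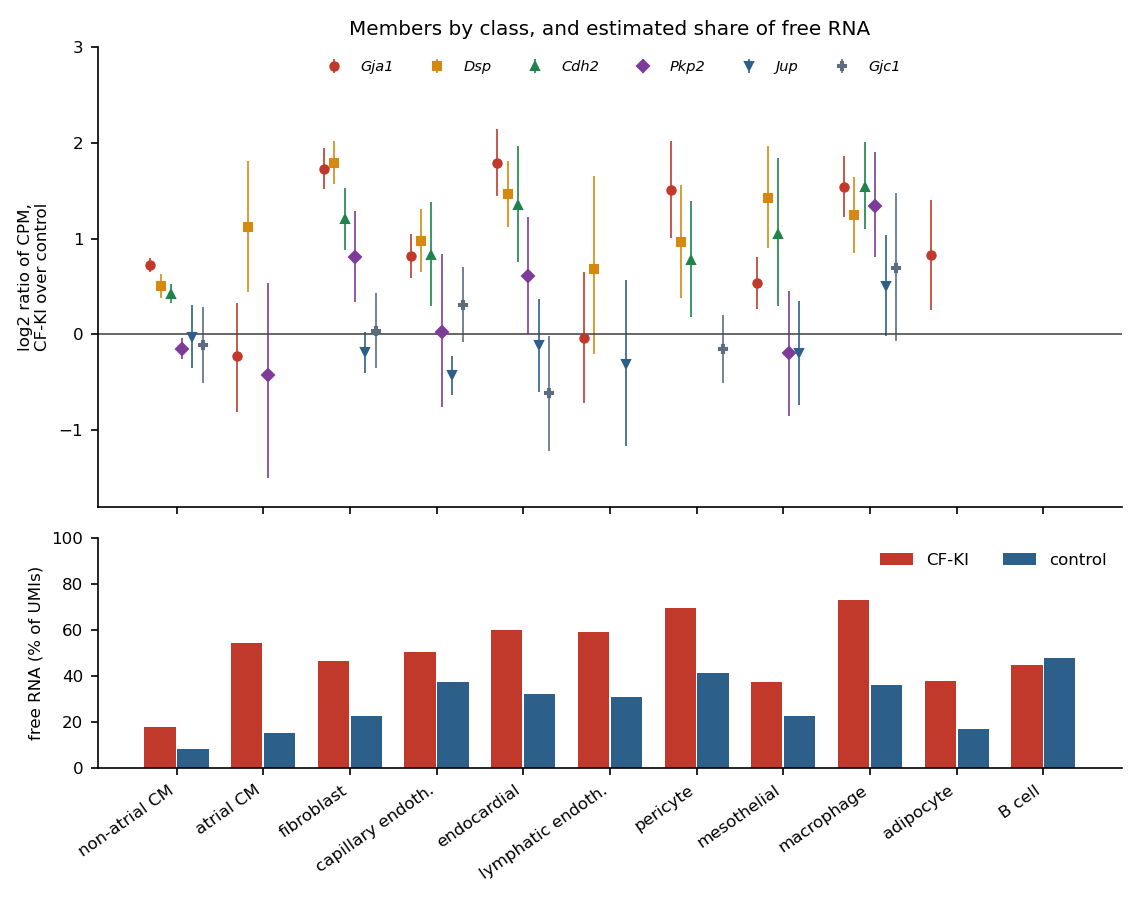
Above, log2 ratio of CPM, CF-KI over control, for 6 members in each class where they had at least 50 UMIs (points, with 95% counting intervals as bars); below, the estimated share of free RNA in percent of UMIs for CF-KI (red) and control (blue). Gja1, Dsp and Cdh2 lie above 0 in fibroblast, endocardial, pericyte and macrophage-like nuclei, and Jup and Gjc1 stay nearer to 0. The CF-KI bar is the higher one in every class shown except B cell-like. This includes atrial nuclei (54.3% and 15.2%), where Gja1 lies at -0.23 and Dsp at 1.12.

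Partners of these genes at the disc were read from lists chosen with earlier results of these data known. Of 14 adherens junction partners with at least 50 UMIs in cardiomyocyte-like nuclei (15 listed), 2 were past 1.5-fold higher and 0 lower, where 21.7% of all features were higher and 6.01% lower, and the median log2 ratio was 0.17 against 0.15 for all features. The highest was Csrp3, a muscle LIM protein, with 484 CPM in CF-KI against 273 CPM in control nuclei (0.83, 0.73 to 0.92), and the lowest was Ctnnb1, the gene of β-catenin, with 116 and 150.4 CPM (-0.38, -0.54 to -0.22). Of 12 desmosome partners 5 were measured and 0 were past 1.5-fold. The lowest, Dsc2, the partner cadherin of desmoglein-2, was lower in CF-KI as Dsg2 was, with 33.0 against 45.4 CPM (-0.46, -0.76 to -0.17), and the highest, Des, the gene of desmin, had 255 against 214 CPM (0.25, 0.14 to 0.37).

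All 12 disc membrane and scaffold genes were measured, and 1 was past 1.5-fold higher and 0 lower. This was Popdc2, a membrane protein that binds cyclic AMP, with 304 CPM in CF-KI against 141 CPM in control nuclei (1.11, 0.98 to 1.23). The lowest was Vezt at -0.41 (-0.68 to -0.14), and the list's median was -0.03. Among 16 other connexins only Gja3 had 50 UMIs, with 50.6 and 47.1 CPM (0.10, -0.15 to 0.36). Of 6 endothelial junction genes, which vessel cells express, 4 were past 1.5-fold higher in CF-KI cardiomyocyte-like nuclei and 0 lower, again beside 21.7% and 6.01% of all features, and the list's median log2 ratio was 0.88 against 0.15. The lowest was F11r at 0.39 (-0.15 to 0.92), and the highest was Cdh5, the gene of VE-cadherin, with 138 against 38 UMIs (2.22, 1.70 to 2.78).

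Likeness of pattern was measured as Pearson's r of log2(CPM + 1) over 22 values, the 11 classes in both libraries, among 11236 other features with at least 200 UMIs. These values share libraries, depth and free RNA, so the figures are a description. The genes most like Gja1 were Tcap (0.83) and Popdc2 (0.81), those most like Dsp were Csrp3 (0.97) and Slc25a4 (0.94), and those most like Cdh2 were Frmd5 (0.94) and Ankrd23 (0.93). Pkp2 was most like Fbxo32 (0.92) and Slc4a3 (0.91), Ctnna3 like Atcayos (0.93) and Mlip (0.92) and Dsg2 like Chrm2 (0.84) and Ehbp1 (0.83). Among the vascular members Gjc1 was most like Notch3 (0.87), a pericyte marker, and Slc12a2 (0.83), Gja4 like Gnb4 (0.86) and Dock6 (0.84) and Jup like Igfbp3 (0.89) and Rtl8a (0.87). Gja5, with its few UMIs, had lower values, with Nudt4 (0.73) and Urgcp (0.73).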

How the data were processed

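Nuclei of cardiac tissue from 2 groups, CF-KI and control, 1 library each, were read with the 10x Genomics single cell 3′ v3 kit. Each deposited matrix gives whole-number UMI counts by feature and barcode, not normalized, per the file headers. Cell Ranger 6.1.1 and mm10 are named in the submitters' processing notes, and whether intronic reads were counted is not given in the sources used here.

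Barcodes with fewer than 200 genes were removed, and so were those with a Scrublet doublet score above 0.4 (1011 in CF-KI, 295 in the control), which left 13956 and 10901. No mitochondrial limit was set. Both libraries were clustered together in scanpy 1.11.5 and leidenalg 0.10.2 on 2000 variable genes (no members, listed, mitochondrial or ribosomal genes), 30 principal components and 15 neighbours at resolution 0.8. A cluster was named "-like" a cell type when at least 3 of its markers were raised, and a cluster with a median mitochondrial share above 50% was kept apart.

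Counts were summed per class and library and divided by the class's non-mitochondrial UMIs (CPM). CPM intervals are exact Poisson, ratio intervals exact conditional binomial and shares of nuclei were taken after thinning, all at 95% and for counting error only. Features with at least 50 UMIs over both libraries were compared, and "past 1.5-fold" is a fold, not a test. For these calls, the class medians of all features and the gene length figures, counts under 3 UMIs were set to 3. Free RNA in a class was estimated as the median, over markers of other cells (the 8 cardiomyocyte markers outside cardiomyocytes), of the class CPM over the whole-library CPM. As scaling alternatives, edgeR 4.0.16 gave TMM factors and DESeq2 1.42.0 median-of-ratios size factors from the summed counts (R 4.3.3), with no test. Other alternatives varied the mitochondrial limit, doublets, resolution, minimum genes and UMIs, depth and free RNA. The ratio script was tested on simulated data.

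Members, partner lists and markers were chosen with earlier results of these data known. Named genes were all members, the 2 most alike genes of each, and the highest and lowest ratio of each partner list in cardiomyocyte-like nuclei. Gene positions are from GENCODE vM21, which held 99.6% of the identifiers.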

Additional observations from a re-analysis of the deposited data

Results flagged for a closer look

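The sign of the library difference went opposite ways in different classes for 2 desmosome genes, by counting intervals that lay wholly on either side of 0. Pkp2 was higher in CF-KI macrophage-like nuclei, with a log2 ratio of 1.34 (91.1 CPM against 36.0 CPM in the control), and lower in non-atrial cardiomyocyte-like nuclei, with -0.15 (254 against 282 CPM). Dsg2 was higher in CF-KI fibroblast-like nuclei, with 1.02 (18.6 against 9.18 CPM), and lower in non-atrial cardiomyocyte-like nuclei, with -0.55 (55.5 against 81.2 CPM). With 1 library per group neither difference between classes was tested. In the macrophage-like class the 8 cardiomyocyte markers summed to 19088 CPM (CF-KI) and 7887 CPM (control), and in the fibroblast-like class to 14113 and 4791 CPM. With free RNA subtracted, neither Pkp2 in macrophage-like nor Dsg2 in fibroblast-like nuclei was left. Within the 2 non-atrial clusters Pkp2 had -0.34 (-0.55 to -0.13) and 0.03 (-0.29 to 0.34). Dsg2 had -0.33 and -0.40 there, both within counting error.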

How the results depend on the processing

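No paired analysis was possible because each group has 1 library, only the replicate number 1 is shared, and no result comes from a test. Of 34 values of the members' median and of the count past 1.5-fold in cardiomyocyte-like nuclei under the alternatives, 28 lay within the limits set for calling a number unchanged and 6 moved. The 28 include the count of 1 under TMM and under median-of-ratios scaling, where the member is Dsg2, lower, in place of Gja1, higher. The median of 0.08 became -0.10 under TMM scaling and -0.14 under median-of-ratios scaling, where the median of all features fell alongside to -0.03 and -0.07. The count of 1 became 2 with mitochondria-dominated barcodes in the class (Gja1 and Dsp), 2 with CPM over all UMIs (Gja1 and Dsg2), 3 with nuclei thinned (Gja1, Dsp and Dsg2) and 2 with a minimum of 20 UMIs, which admits a ninth member, Gja4. The share of all features past 1.5-fold under each alternative is not given here, so these counts are no result about the members. Of the single ratios by class, 831 stayed, 70 moved and 5 changed sign. Those were Dsp in capillary endothelial-like nuclei, at -0.042 with at most 5% mitochondrial UMIs, and Ctnna3 in all and in non-atrial cardiomyocyte-like nuclei, at -0.0058 and -0.0031 with mitochondria-dominated barcodes counted in the class and at -0.022 and -0.024 under median-of-ratios scaling. For these the cause was not tested, except that the scaling shifts every ratio of a class alike. Subtracting free RNA gives no value for a member that is left within counting error of 0, such as all 7 in macrophage-like nuclei. With at most 5% mitochondrial UMIs, Gja4 of the control was highest in lymphatic endothelial-like nuclei (105 CPM) just before pericyte-like nuclei (104 CPM). Under the same limit Dsp of the control was highest in non-atrial and Ctnna3 of the control in atrial nuclei. With CPM over all UMIs, Gja1 and Dsp of the control were highest in non-atrial nuclei and Gja5 of CF-KI in pericyte-like nuclei. Members with few UMIs, above all Gja5, are limited by depth, and 1 library per group leaves the spread between animals unknown.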
